A study of Mus musculus with 16 samples.

Results

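RNA-Seq counts of mouse TM4 cells that expressed *gdf6Y* were compared with those of cells that expressed its mutant *gdf6Ydel9* (del9 below), with the samples matched by replicate number. The 10 samples of this comparison, 5 with gdf6Y and 5 with del9, were chosen by their labels from the 16 samples of the series, and they form 5 pairs that carry the replicate numbers 1 to 5 in both groups. TM4 is an established line of mouse Sertoli-like cells, and all samples of the series were transfected for 24 h with 2.5 µg of an expression plasmid. The plasmid of the gdf6Y group held the coding sequence of *gdf6Y*, the gene on the Y chromosome of the turquoise killifish that determines male sex, and that of the del9 group held the same sequence with an in-frame deletion of 9 bases in the part that encodes the prodomain. The remaining 6 samples received the vector without an insert (EV) and are set beside the pairs without a test. Both plasmids of a pair therefore carried an insert, and the comparison asks what the deletion took away from the response of the cells. The protein was a fish protein from a plasmid in a transiently transfected cell line, and the counts do not show how much of it was made. The mouse *Gdf6* gene had 0 counts in all 16 samples, and no read of the insert was among the genes counted.

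Gdf6 is a ligand of the BMP (bone morphogenetic protein) branch of the TGF-β family. Such ligands are made as precursors, the prodomain is cleaved off, and the mature dimer binds pairs of type I and type II receptor kinases. In the BMP branch the receptors phosphorylate Smad1, Smad5 and Smad9, which enter the nucleus with Smad4 and switch on *Id* genes and the inhibitory Smads *Smad6* and *Smad7*, which in turn dampen the pathway. In the gonad, ligands of this family act in the differentiation of Sertoli and granulosa cells.

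Promoter windows from 250 bases before to 50 bases after a gene’s start, taken from RefSeq (build GRCm38.p6), were searched on both strands for 3 motifs that Smad proteins are known to bind: GGCGCC, the palindrome GTCTAGAC and CAGACA. No position is shared by these motifs. The windows of *Id2* (chr12:25096043-25096342, minus strand), *Smad9* (chr3:54755332-54755631, plus strand) and *Smad6* (chr9:64022010-64022309, minus strand) are shown because these genes rose together and their windows held a GGCGCC or GTCTAGAC match, printed in capitals.
Id2: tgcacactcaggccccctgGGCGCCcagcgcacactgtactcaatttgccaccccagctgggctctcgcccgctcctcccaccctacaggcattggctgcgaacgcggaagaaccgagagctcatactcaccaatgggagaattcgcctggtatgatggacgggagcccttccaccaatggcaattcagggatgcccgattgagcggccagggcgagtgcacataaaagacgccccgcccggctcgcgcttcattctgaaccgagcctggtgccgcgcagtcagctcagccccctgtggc
Smad9: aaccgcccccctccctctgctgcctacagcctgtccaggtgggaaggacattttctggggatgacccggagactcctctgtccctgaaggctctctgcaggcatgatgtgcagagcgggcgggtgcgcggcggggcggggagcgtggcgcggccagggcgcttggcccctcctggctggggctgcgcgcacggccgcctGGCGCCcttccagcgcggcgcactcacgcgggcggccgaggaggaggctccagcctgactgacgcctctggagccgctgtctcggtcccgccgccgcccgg
Smad6: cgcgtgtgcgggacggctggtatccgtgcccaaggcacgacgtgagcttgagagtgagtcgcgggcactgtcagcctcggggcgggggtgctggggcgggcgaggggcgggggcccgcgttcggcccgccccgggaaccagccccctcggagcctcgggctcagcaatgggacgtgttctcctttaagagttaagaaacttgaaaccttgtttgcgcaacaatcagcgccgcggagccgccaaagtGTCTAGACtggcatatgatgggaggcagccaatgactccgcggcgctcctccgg
Among 32851 windows in the table, 11.9% held GGCGCC, 0.213% held GTCTAGAC and 21% held CAGACA. The windows of *Id3* and *Atoh8*, which rose as well, held no match to any of the 3 motifs. A window was given for 95 of the 139 genes called higher below, for 89 of the 128 called lower and for 8985 of the 11990 tested. GGCGCC stood in 23.4% of the windows of the genes called higher, in 24% of those of the genes called lower and in 21.2% of those of all genes tested. CAGACA stood in 21.8%, 16.5% and 15.5% of these windows. GTCTAGAC was found in 1 window of the genes called higher, that of *Smad6*, in 0 of 121 of those called lower and in 29 of 11499 of all genes tested.

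Between 22349497 and 26444903 reads per gdf6Y sample, between 24608410 and 26071045 per del9 sample and between 21486850 and 25844048 per EV sample were counted on genes. Normalized counts below are counts scaled to a common library size with TMM factors, so that they compare samples of a gene and not genes with each other. SE is the standard error of a log2 fold change. The labels do not say that replicates came from separate cultures, so p-values measure the spread between these samples, which may be technical. The gdf6Y sample of replicate 1 stood apart: it differed from the other 4 with a chi-square of 7.91 to 12 per degree of freedom, against 2.73 to 4.58 among those 4. The del9 sample of replicate 1 stood out less, with 3.9 to 6.68, against 3.37 to 5.99 among the other del9 samples. A second difference between libraries concerned genes that overlap, on the other strand, a gene at least 100 times as abundant. The summed level of 1217 such genes was 441, 458, 407, 462 and 506 CPM (counts scaled to equal library totals) with gdf6Y (replicates 1 to 5), 441, 343, 371, 372 and 397 with del9 and 398 to 516 with EV. It was alike in both samples of pair 1 and higher with gdf6Y in pairs 2 to 5. Its part in the results was not tested other than by a fit with this level as a covariate, which was chosen after the data were seen and which is cited below. Because the level differed with the plasmid in pairs 2 to 5, that fit was less precise: the SE of *Id1* was 0.052, against 0.026. A call lost in it can therefore go with a smaller change or with a larger SE alone.

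Of 56748 genes in the table, 11990 had at least 10 counts in every one of the 10 samples and were tested in edgeR’s quasi-likelihood framework, with pairs as blocks and Benjamini-Hochberg adjustment over all of them. Called means an adjusted p below 0.05. With gdf6Y, 139 genes (1.16% of those tested) were higher than with del9 and 128 (1.07%) were lower. The median change was 12.3% upwards among the former and fell by 8.77% among the latter, and 13 of the 139 but 0 of the 128 changed by more than 1.5-fold. All 5 pairs went in the direction of the call for 136 of the 139 and for 121 of the 128 genes, and the others did so in 4 pairs. The 5 gdf6Y samples lay above all 5 del9 samples for 54 of the 139 genes and below them for 52 of the 128. Over all genes tested, 0.926% lay above in this way and 1.08% below.

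The pairing carried most of these calls. Without the block 25 genes were called higher and 19 lower, all 44 among the 267 called with it. The biological coefficient of variation was 3.91% without and 2.74% with the block, and 1142 genes had an unadjusted p below 0.05 without it, against 1920 with it. For the 223 genes that were called with the block only, the median SD of the 5 pair ratios was 0.055 on the log2 scale. Samples that were not paired would have given 0.11. Those genes were picked through the block, which favours a low SD of the pair ratios. Over all genes tested, the corresponding values were 0.08 and 0.102. A set of 24 genes was made of equal numbers called higher and lower, those with the smallest adjusted p in each direction. Only genes with all 5 pairs in the direction of the call entered it. Of these 24 genes, 21 were called without the block too, all except *Hmga2*, *Chlsn* and *Gfod1*. With 1 pair left out, 424 genes were called higher and 550 lower without pair 1, 102 and 72 without pair 2, 48 and 34 without pair 3, 68 and 40 without pair 4, and 74 and 49 without pair 5. In all 6 of these fits 43 genes were called higher and 30 lower, and the 24 genes were among the calls of each. With the summed opposite-strand level as a covariate beside the block, 78 genes were higher and 11 lower, and 18 of the 24 remained called.

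**Figure D1:**
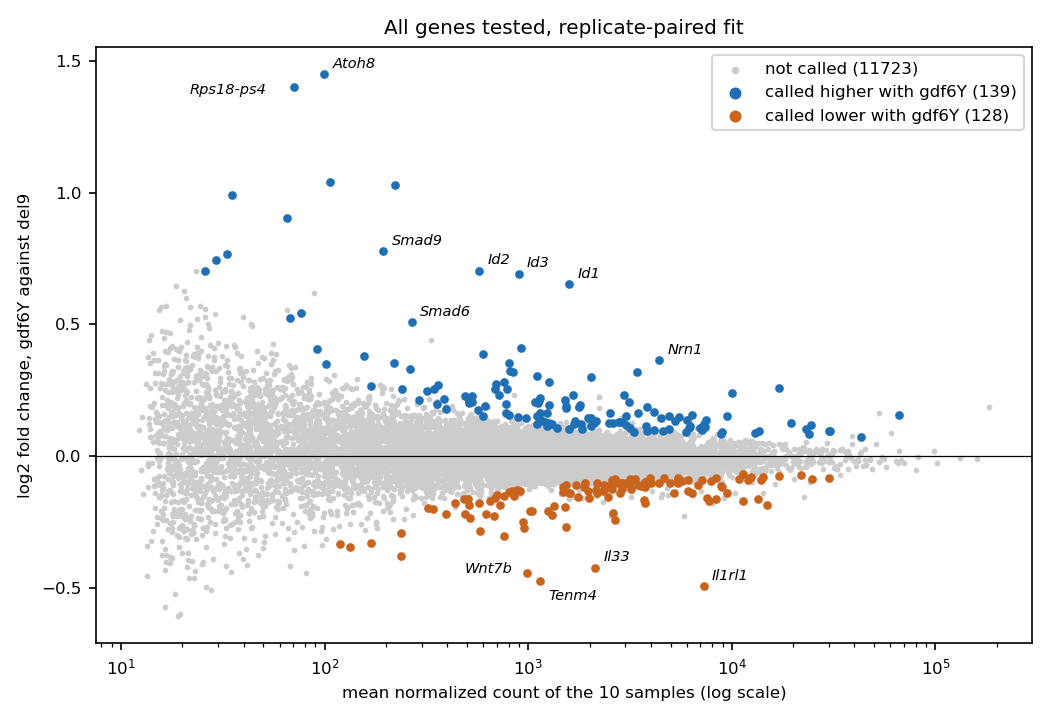
Each point is 1 of the 11990 genes tested, with its mean normalized count over the 10 samples on the x axis (log scale) and its log2 fold change of gdf6Y against del9 on the y axis. Blue points are the 139 genes called higher and orange points the 128 called lower. *Atoh8* lies highest at 1.45, and *Il1rl1* lowest among the called genes at -0.49.

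*Id1* and *Id3* had the smallest adjusted p of all genes tested. The *Id* genes encode helix-loop-helix proteins without a DNA-binding part, which sequester the transcription factors they bind. *Id1* (GRCm39 chromosome 2, 152566218 to 152579544) had normalized counts of 1841, 1933, 2044, 1852 and 1989.9 with gdf6Y and 1148, 1229, 1314, 1228 and 1233 with del9, in the order of the pairs. Each gdf6Y sample was far above every del9 sample. *Id1* was 1.57-fold higher with gdf6Y (log2 fold change 0.65, SE 0.026, edgeR adjusted p = 1.03e-09), and the 5 pair ratios ran from 0.59 to 0.69 in log2 units. In the 6 EV samples it was 986 to 1087 (median 1030.1), below every del9 sample.

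*Id3* (chromosome 4, 135870808 to 135873066) had normalized counts of 1091, 1114, 1085, 1065 and 1188 with gdf6Y and 657, 669, 704, 682 and 721 with del9. The groups were far apart, and the EV samples at 649.8 to 712 (median 671) overlapped those with del9. The change was 1.62-fold (log2 fold change 0.69, SE 0.032, edgeR adjusted p = 3.65e-09). For *Id2* (chromosome 12, 25143798 to 25147282) the counts were 630.4, 695, 679, 746 and 799 with gdf6Y and 417, 428, 435, 438 and 462 with del9, with pair ratios of 0.59 to 0.79. *Id2* was 1.63-fold higher (log2 fold change 0.70, SE 0.041, edgeR adjusted p = 5.17e-08), and its EV samples had 366 to 429.8 (median 398). *Id4* had at most 1 count in a sample and was not tested.

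*Atoh8*, a basic helix-loop-helix transcription factor, showed the largest change of all called genes. Its normalized counts (chromosome 6, 72183161 to 72212602) were 162, 121, 160.1, 135 and 150.3 with gdf6Y and 47.8, 47.7, 54.2, 59.8 and 57.0 with del9. The groups were far apart, and EV had 39.3 to 56.1 (median 51.4). *Atoh8* was 2.73-fold higher (log2 fold change 1.45, SE 0.10, edgeR adjusted p = 2.93e-07). Its pair ratios, from 1.18 to 1.76, spread more widely than those of the *Id* genes. DESeq2 gave no adjusted p for *Atoh8* and *Smad9*, which its filter on low means left out.

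**Figure D2:**
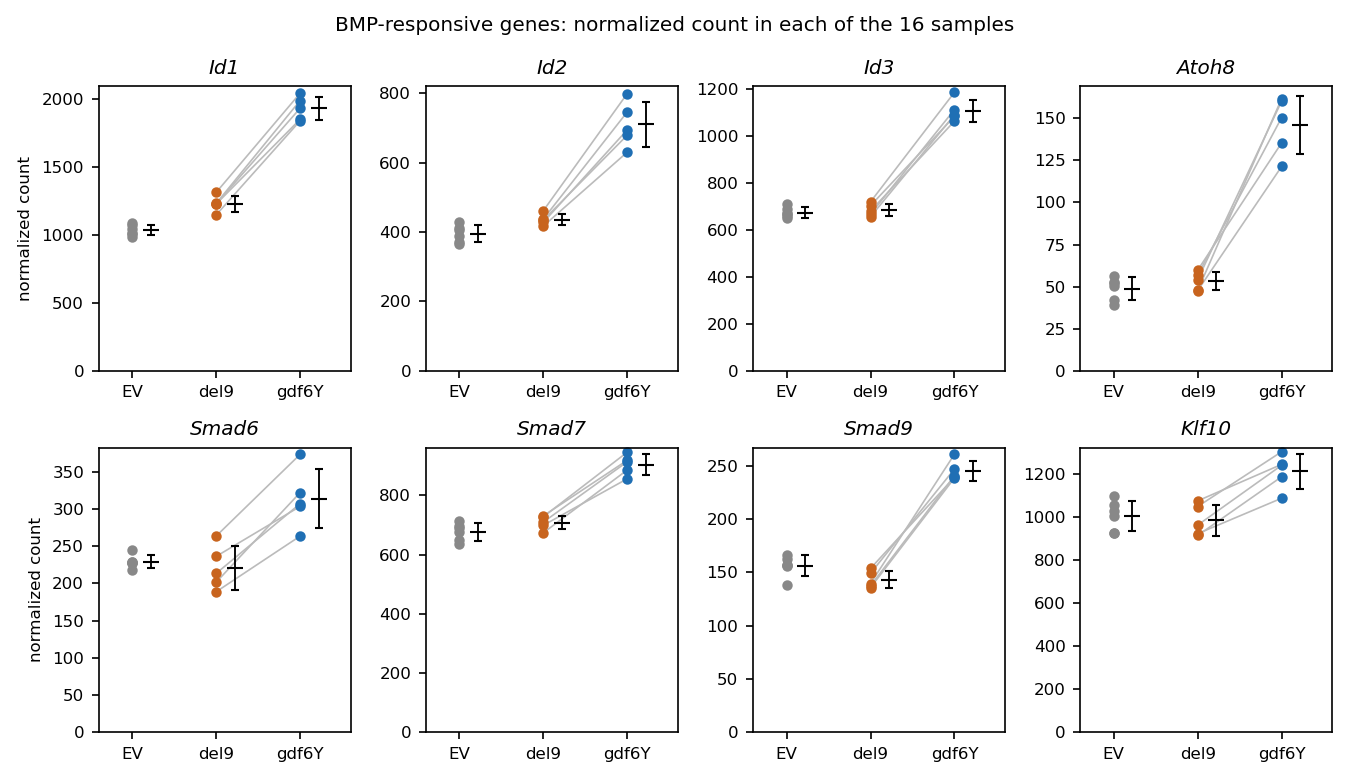
Normalized counts (y axis, from 0) of 8 BMP-responsive genes in each of the 16 samples, by plasmid (x axis). Grey lines join the del9 and gdf6Y samples of the same replicate number, and the black bars give the mean and SD of each group. All lines rise, and in all panels except *Smad6* the gdf6Y samples lie above every del9 sample.

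Of the Smad proteins, the inhibitory *Smad6* and *Smad7* and the receptor-regulated *Smad9* rose. *Smad9* (chromosome 3, 54662963 to 54708680) had 238, 240.4, 261, 247 and 239 normalized counts with gdf6Y, 136, 137, 139, 149 and 154 with del9 and 138 to 166 (median 157) with EV. It was 1.72-fold higher with gdf6Y than with del9 (log2 fold change 0.78, SE 0.064, edgeR adjusted p = 3.49e-06). *Smad7* (chromosome 18, 75500374 to 75529006) had 885, 913, 946, 856 and 918 with gdf6Y and 673, 709.5, 728, 699 and 730.3 with del9, and EV gave 635 to 712 (median 683). Both groups were tight, and the change was 1.28-fold (log2 fold change 0.35, SE 0.032, edgeR adjusted p = 9.15e-06). *Smad6* (chromosome 9, 63860341 to 63929793) had 373, 264, 322, 303 and 307 with gdf6Y and 264, 189, 202, 236 and 213 with del9. The gdf6Y sample of pair 2 was equal, within 1 count, to the del9 sample of pair 1, so the groups met, but each gdf6Y sample lay well above its own partner. *Smad6* was 1.42-fold higher (log2 fold change 0.51, SE 0.057, edgeR adjusted p = 0.000121), with pair ratios from 0.36 to 0.67. The BMP receptor-regulated *Smad1* and *Smad5*, the TGF-β branch’s *Smad2* and *Smad3* and the shared *Smad4* were not called, with log2 fold changes of 0.01, 0.06, -0.02, 0.02 and 0.02. In the list of 28 tested Smad proteins and their regulators, 4 were called higher (*Smad9*, *Smad7*, *Smad6* and *Skil*) and 0 lower in edgeR’s test. The 4 were 14.3% of the list, against 1.16% of all genes tested, and the median log2 fold change was 0.019. At an unadjusted p below 0.05, 1 of the 28 was lower, and limma-voom and DESeq2 called 0 lower. DESeq2 called 3 higher.

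In a list of 26 tested genes that respond to BMPs, 11 were called higher (42.3%, against 1.16% of all genes tested) and 0 lower, and the median log2 fold change was 0.17. Besides the 3 *Id* genes, *Atoh8* and the 3 Smads, these were *Klf10*, *Gata3*, *Snai1* and *Snai2*. The list, like the others here, was chosen with earlier results of these data known, so its share of calls is not independent of them. Neither limma-voom, DESeq2 nor an unadjusted p below 0.05 gave any that was lower. Without the block 8 were called higher, and DESeq2 called 6 higher. *Klf10*, a zinc-finger factor that is induced early in TGF-β responses, had 1089, 1306, 1189, 1243 and 1247 normalized counts with gdf6Y and 925, 1051, 916, 964 and 1077 with del9. The lowest gdf6Y and the highest del9 sample were close, at 1089 to 1306 and 916 to 1077, and the change was 1.23-fold (log2 fold change 0.30, SE 0.032, edgeR adjusted p = 5.71e-05). *Snai1* and *Snai2*, zinc-finger repressors of epithelial genes, rose by 14.1% and 10.7% (adjusted p = 0.0202 and 0.0228, edgeR), and neither group overlapped the other. For *Snai1* the counts were 668, 608, 658, 638 and 687 with gdf6Y and 534, 584, 576, 573 and 593 with del9. *Gata3*, a zinc-finger transcription factor outside the rule for naming genes, was given because it completes the count. Its mean normalized count was 529 with gdf6Y and 453 with del9 (adjusted p = 0.0045, edgeR). *Bambi*, a decoy receptor that BMPs induce in many cells, had 433 to 451 with gdf6Y and 409.6 to 431 with del9. Its groups did not overlap, but the difference of 4.59% was not called (log2 fold change 0.06, SE 0.042, edgeR adjusted p = 0.478).

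Genes of the other branch respond through Smad2 and Smad3. Of 28 tested, 6 were called higher (21.4%, against 1.16% of all genes tested) and 0 lower, and their median log2 fold change was 0.028. At an unadjusted p below 0.05, 3 were lower, and limma-voom and DESeq2 called 0 lower. DESeq2 called 4 higher, and without the block none of the 6 was called. *Ccn2*, a matricellular protein also counted among the targets of YAP, rose by 6.84% and *Skil*, a corepressor of Smads, by 9.46% (adjusted p = 0.00423 and 0.00916, edgeR). *Postn*, a matrix protein of low level here, had 283, 225, 238, 288 and 187 with gdf6Y and 208, 196, 162, 229.7 and 160.4 with del9. Its samples overlapped, each pair rose, and the change was 27.9% (log2 fold change 0.36, SE 0.065, edgeR adjusted p = 0.00791); it was lost without pair 3 (adjusted p = 0.0762, edgeR; 0.00791 with all 5 pairs). *Ltbp2*, which binds microfibrils, and *Col3a1*, a fibrillar collagen, rose by 13.5% and 7.15%.

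Receptors, ligands, antagonists and convertases act upstream of the Smads. Of 12 tested receptors of the family, *Tgfbr2*, the type II receptor of TGF-β, was called lower (8.33%, against 1.07% of all genes tested) and none higher. Its normalized counts were 5836, 5747, 5914, 5908 and 5592 with gdf6Y and 6377, 6528, 6351, 6213 and 6373 with del9, and EV gave 6262 to 6476 (median 6341), in the range of del9. The groups did not overlap, and *Tgfbr2* fell by 8.79% (log2 fold change -0.13, SE 0.021, edgeR adjusted p = 0.00309). With the opposite-strand level as a covariate its log2 fold change was -0.10 (SE 0.038) and it was not called (adjusted p = 0.304, edgeR). At an unadjusted p below 0.05, 2 receptors were higher; limma-voom and DESeq2 called 0. The BMP receptors *Bmpr1a*, *Bmpr2* and *Acvr1* had log2 fold changes of 0.07, -0.03 and 0.02. None of 8 tested ligands of the family was called by edgeR, limma-voom or DESeq2, with 0 higher and 2 lower at an unadjusted p below 0.05. Of 12 secreted antagonists, *Fstl1* was higher and *Fst* lower (8.33% each way, against 1.16% and 1.07%). *Fst*, follistatin, which binds activins and some BMPs, had 388, 598, 537, 472 and 618 normalized counts with gdf6Y and 525, 683, 654, 589 and 723 with del9. It varied more between replicate numbers than between plasmids, and in every pair gdf6Y was the lower sample. *Fst* fell by 17.8% (log2 fold change -0.28, SE 0.041, edgeR adjusted p = 0.00117) and was not called without the block (adjusted p = 0.356, edgeR). EV had 395 to 559.7 (median 468). *Fstl1*, a related secreted glycoprotein, rose by 7.54%. The proprotein convertases, which cleave the precursors of the family, had 0 calls among 4 tested in all 3 tools, with 1 higher at an unadjusted p below 0.05.

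Outside these lists, *Nrn1*, *Lxn*, *Unc5b*, *Slc66a3* and *Foxo1* were among the 12 genes called higher with the smallest adjusted p. *Nrn1*, neuritin, a small membrane-anchored protein that promotes neurite growth, had 5095, 4430.1, 5061, 5266 and 4827 normalized counts with gdf6Y and 4039, 3529, 3813, 4158 and 3649 with del9. In both groups replicate 2 was the lowest, and the ratio of each pair stayed within 0.33 to 0.41 in log2 units (log2 fold change 0.37, SE 0.021, edgeR adjusted p = 5.5e-08). *Lxn*, latexin, an inhibitor of carboxypeptidases, had 1110, 985, 1008, 1052 and 1088 with gdf6Y and 793, 763, 823, 781 and 787 with del9. It was 1.33-fold higher (log2 fold change 0.41, SE 0.034, edgeR adjusted p = 3.84e-06), and EV, at 774 to 832 (median 795), lay with del9. *Unc5b*, a netrin receptor, had 3939.8, 3839, 3672, 3806 and 3760.3 with gdf6Y and 2947, 3077, 3014, 2962 and 3258 with del9, a 1.25-fold difference (log2 fold change 0.32, SE 0.027, edgeR adjusted p = 3.84e-06). For *Slc66a3*, of a family of membrane transporters, the counts were 1018, 846, 879, 982 and 918 with gdf6Y and 799, 717, 703, 803 and 709 with del9. Here EV, at 806 to 912 (median 866), lay above every del9 sample and overlapped gdf6Y. The same held in part for *Foxo1*, a forkhead factor that insulin signalling keeps out of the nucleus, with 2169 to 2402 with gdf6Y, 1662 to 1962 with del9 and 1958 to 2193 (median 2125) with EV. *Slc66a3* and *Foxo1* were 1.25-fold and 1.23-fold higher (adjusted p = 4.41e-05 and 4.41e-05, edgeR).

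**Figure D3:**
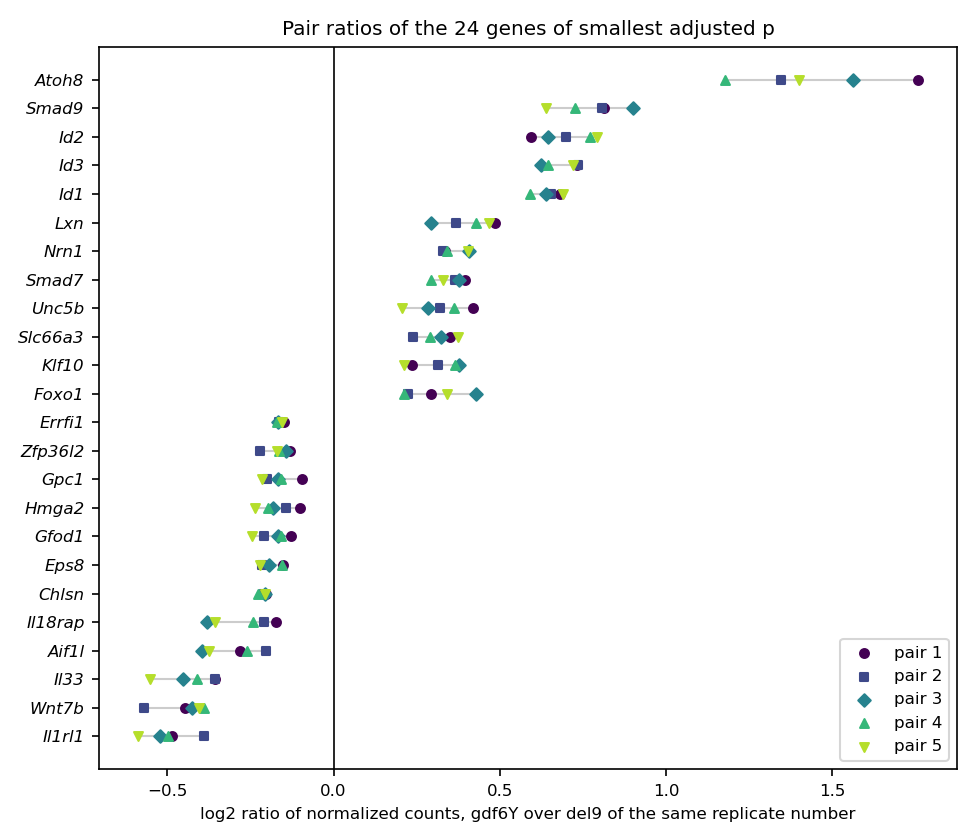
Log2 ratios of normalized counts, gdf6Y over del9, within each pair (x axis) for 24 genes (y axis, ordered by log2 fold change). The genes are those with the smallest adjusted p in each direction, in equal numbers, among genes with all 5 pairs in that direction. Symbols stand for the pairs and grey lines for their range. By this choice no gene can cross 0. *Atoh8* has the widest range, from 1.18 to 1.76.

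The lower genes were led by 2 genes of 1 cytokine axis. *Il1rl1* encodes ST2, the receptor of interleukin-33, and *Il33* encodes interleukin-33 itself. *Il1rl1* (chromosome 1, 40468730 to 40504575) had 5496, 6277, 6558, 6076 and 5719 normalized counts with gdf6Y and 7701, 8227, 9422, 8575 and 8596 with del9. No sample of one group entered the range of the other, and EV, at 7192 to 8074 (median 7433), lay between them and overlapped the lowest del9 sample. *Il1rl1* fell by 29% (log2 fold change -0.49, SE 0.024, edgeR adjusted p = 5.01e-09). *Il33* (chromosome 19, 29902483 to 29938933) had 1596, 1928, 2044, 1835 and 1696 with gdf6Y and 2045, 2470, 2795, 2438 and 2486 with del9. The lowest del9 sample and the highest gdf6Y sample differed by 1 count, and in each pair gdf6Y was lower by -0.36 to -0.55 in log2 units. *Il33* fell by 25.5% (log2 fold change -0.42, SE 0.029, edgeR adjusted p = 2.93e-07), and EV had 1868 to 2292 (median 1979), nearer to gdf6Y. *Il18rap* (chromosome 1, 40554522 to 40590865), a subunit of the interleukin-18 receptor on the same chromosome as *Il1rl1*, had 855, 856, 897, 901 and 823 with gdf6Y and 965, 989, 1168, 1066 and 1053 with del9. It fell by 17.2% (log2 fold change -0.27, SE 0.035, edgeR adjusted p = 0.00041). With the opposite-strand level as a covariate its log2 fold change was -0.26 (SE 0.066, edgeR adjusted p = 0.0584). Receptor genes of the same family that were looked at after these values were seen, *Il1r1*, *Il1rl2* and *Il1rap*, had log2 fold changes of -0.10, 0.12 and -0.02 and were not called.

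*Wnt7b*, a secreted ligand of Frizzled receptors, followed *Il1rl1* and *Il33* in adjusted p among the lower genes. Its normalized counts were 805, 815, 805, 847 and 884 with gdf6Y and 1098, 1211, 1081, 1109 and 1169.8 with del9. EV had 978 to 1070.5 (median 1036), between both groups and below every del9 sample. *Wnt7b* fell by 26.5% (log2 fold change -0.44, SE 0.033, edgeR adjusted p = 9.71e-07). *Tenm4*, a teneurin that acts in cell adhesion and axon guidance, fell by 28.1% (log2 fold change -0.48, SE 0.070, edgeR adjusted p = 0.00144), with 1237, 834, 917, 998 and 807 with gdf6Y and 1285, 1450.5, 1323, 1336 and 1272 with del9. Pair 1 differed by 0.05 in log2 units and the other pairs by 0.42 to 0.80. With the opposite-strand level as a covariate the change of *Tenm4* was -0.14 (adjusted p = 0.542, edgeR).

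**Figure D4:**
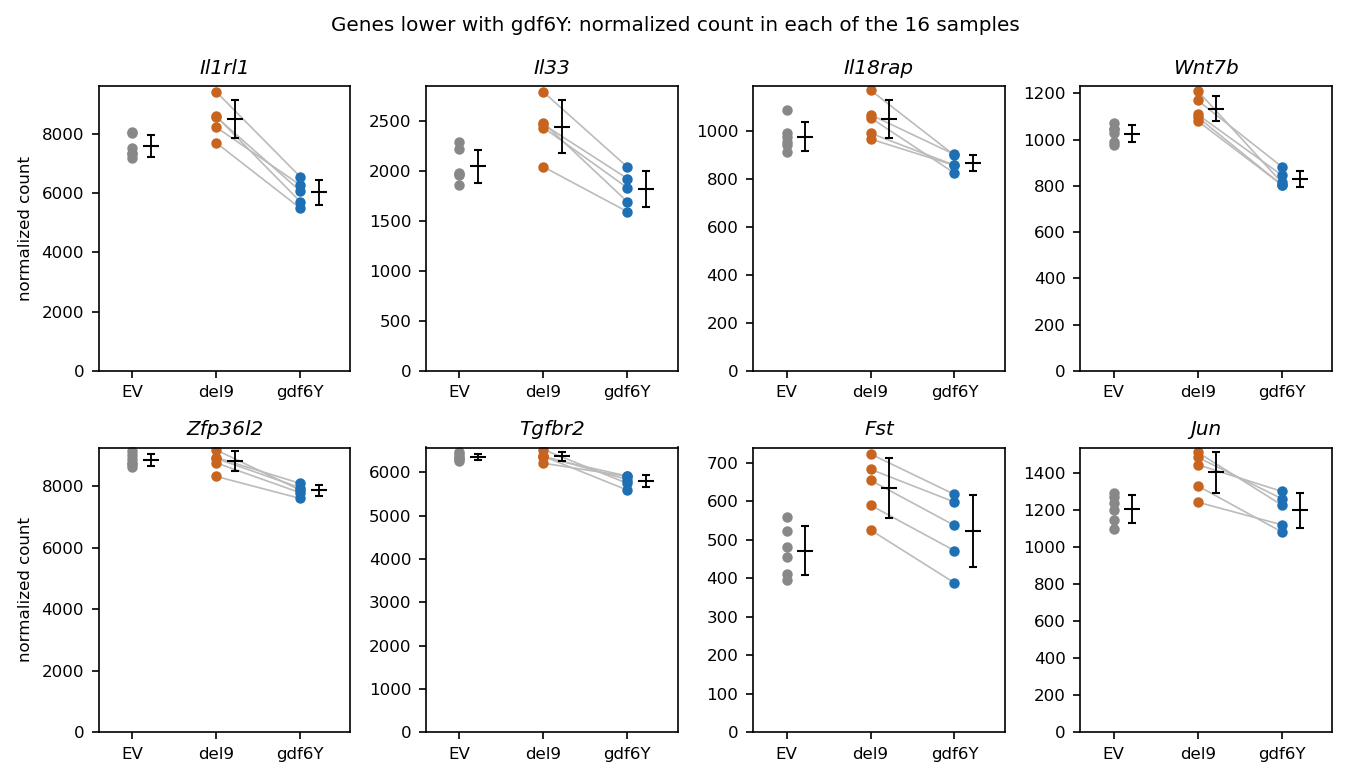
Normalized counts (y axis, from 0) of 8 genes that were lower with gdf6Y, in each of the 16 samples, by plasmid (x axis). Grey lines join the samples of a pair, and black bars give mean and SD. Every line falls, while the EV samples lie with del9 for *Zfp36l2* and *Tgfbr2* and lower than most del9 samples for *Il33*, *Wnt7b*, *Fst* and *Jun*.

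The remaining lower genes with the smallest adjusted p changed by 10.5% to 18.9%. *Eps8*, an adaptor of the EGF receptor that acts on actin, had 13761, 13672, 14675, 14529 and 13127 normalized counts with gdf6Y and 15288, 15862, 16781, 16165 and 15301 with del9, without overlap (log2 fold change -0.18, SE 0.018, edgeR adjusted p = 2.22e-05). *Errfi1*, a feedback inhibitor of the EGF receptor, fell by 10.5% (log2 fold change -0.16, SE 0.018, edgeR adjusted p = 0.000121). Its pair ratios were the most even of the 24 genes together with those of *Chlsn*, between -0.15 to -0.17. *Zfp36l2*, an RNA-binding protein that promotes decay of AU-rich mRNAs, had 7602, 7873, 8090.3, 7950.4 and 7788 with gdf6Y and 8317, 9177, 8930, 8899.8 and 8756 with del9. It fell by 10.7% (log2 fold change -0.16, SE 0.019, edgeR adjusted p = 0.000203), and EV gave 8629 to 9143 (median 8821). With the covariate the log2 fold change of *Zfp36l2* was -0.12 (SE 0.034, edgeR adjusted p = 0.114). *Zfp36l2* was the 1 gene called among 22 tested mRNA decay factors (4.55%, against 1.07% of all genes tested). *Aif1l*, an actin-bundling protein, fell by 18.9% (adjusted p = 0.000203, edgeR), and *Gpc1*, a heparan sulfate proteoglycan, by 10.9% (adjusted p = 0.000606, edgeR). *Hmga2*, a chromatin protein of growing cells, had 9167, 11590, 11431, 10303 and 10710 with gdf6Y and 9825, 12798, 12958, 11808 and 12611 with del9. Pair 1 was the lowest in both groups, which overlapped, and *Hmga2* was not called without the block (adjusted p = 0.4, edgeR; 0.000204 with it). The same was true of *Chlsn* and *Gfod1* (adjusted p = 0.122 and 0.507 without the block, edgeR). With the covariate, *Hmga2*, *Chlsn*, *Gfod1* and *Gpc1* had an adjusted p of 0.0872, 0.0769, 0.142 and 0.278 (edgeR). Their log2 fold changes in that fit were -0.13, -0.20, -0.13 and -0.11.

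Immediate early genes, which growth factors switch on within minutes, were called in both directions. Of 24 tested, *Jun*, *Myc*, *Jund* and *Ier2* were called lower (16.7%, against 1.07% of all genes tested), *Klf10* was called higher (4.17%, against 1.16%), and the median log2 fold change was -0.078. None of the 4 lower ones was called without the block or with the opposite-strand covariate. *Jun*, a subunit of the AP-1 factor, had 1121, 1228, 1301, 1083 and 1262 normalized counts with gdf6Y and 1243, 1512, 1445, 1331 and 1485 with del9. It fell by 14.4% (log2 fold change -0.22, SE 0.031, edgeR adjusted p = 0.000696), and the EV samples, at 1098 to 1291 (median 1217), were near those with gdf6Y. *Myc*, *Jund* and *Ier2* fell by 6.83%, 7.06% and 9.69%. *Egr1* and *Fosl1* had log2 fold changes of -0.10 and -0.10 and did not pass (adjusted p = 0.084 and 0.0718, edgeR), and *Fos* had 0.34 (adjusted p = 0.136, edgeR). Of 15 genes that act in or respond to MAPK feedback, *Il1rl1* and *Dusp7*, a phosphatase of ERK kinases, were lower. This was 13.3%, against 1.07% of all genes tested, and *Il1rl1* is also the lower gene with the smallest adjusted p. In edgeR, limma-voom and DESeq2, 0 of the 15 were higher (1 at an unadjusted p below 0.05). *Dusp7* fell by 10.3% (log2 fold change -0.16, SE 0.025, edgeR adjusted p = 0.00238), with 1629.6 to 1694 with gdf6Y and 1777 to 1899 with del9. *Dusp6*, *Spry2* and *Spry4*, inhibitors in the same pathway, had log2 fold changes of 0.00, -0.03 and 0.04. *Ccnd1*, cyclin D1, was lower than with del9 by 6.21% and *Hbegf*, a ligand of the EGF receptor, by 12.3% (adjusted p = 0.00724 and 0.00309, edgeR). Neither was called without the block (adjusted p = 0.511 and 0.276, edgeR) or with the covariate (adjusted p = 0.278 and 0.615, edgeR). For both the EV mean was below the gdf6Y mean, with 13062 and 13435 for *Ccnd1* and 1137.5 and 1241.8 for *Hbegf*. *Rrm2*, a subunit of ribonucleotide reductase, rose by 11% (adjusted p = 0.000203, edgeR). It was the 1 gene called among 29 of DNA replication (3.45%, against 1.16% of all genes tested).

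Of 22 tested mesenchymal transcription factors, *Foxc1*, *Nr2f2*, *Snai1* and *Snai2* were called higher (18.2%, against 1.16% of all genes tested). DESeq2 called 2 higher, and 1 was called without the block. By edgeR, limma-voom or DESeq2, 0 were called lower (1 at an unadjusted p below 0.05). *Foxc1*, a forkhead factor, had 3242, 3122, 3119.6, 3269 and 3190.3 normalized counts with gdf6Y and 2957, 2768, 2429, 2870.4 and 2596 with del9 (log2 fold change 0.23, SE 0.030, edgeR adjusted p = 0.000474). The EV samples, at 3272 to 3707 (median 3373), lay above both. Of 22 collagen genes, *Col5a2*, *Col8a1* and *Col3a1* were called higher (13.6%), by at most 7.27%. DESeq2 called 1 higher, and none was called without the block. In any of the 3 tools 0 were lower (1 at an unadjusted p below 0.05). Of 22 matrix proteases and their inhibitors, 0 were called higher by the 3 tools (4 at an unadjusted p below 0.05) and *Adamts14* was called lower (4.55%, against 1.07% of all genes tested), with a median log2 fold change of 0.011. Among 32 tested cytokines and growth factors, *Cxcl12*, a chemokine, rose by 21.5%, *Csf1*, the growth factor of macrophages, by 7.8% and *Fgf10* by 9.18%. *Il33* and *Hbegf* fell. The calls were 9.38% of the list upwards and 6.25% downwards, against 1.16% and 1.07% of all genes tested. *Cxcl12* had 926, 687, 797, 940.3 and 805 with gdf6Y and 796, 664, 597, 757 and 611 with del9, with overlapping groups and 5 of 5 pairs higher (log2 fold change 0.28, SE 0.046, edgeR adjusted p = 0.00312). Of 30 genes of netrin, semaphorin, slit and related guidance signals, *Unc5b* was higher and *Tenm4*, *Flrt2*, *Sema5a* and *Sema4b* were lower (3.33% and 13.3%, against 1.16% and 1.07% of all genes tested). In pair 1 the ratio was above 0 for 21 of the 30, and in the other pairs for 8 to 14. *Flrt2*, which binds Unc5 receptors, fell by 12.6% (log2 fold change -0.19, SE 0.035, edgeR adjusted p = 0.00631), with 1244 to 1527 with gdf6Y and 1550.4 to 1735 with del9. The semaphorins *Sema5a* and *Sema4b* fell by 13.9% and 9.94%, the first in 4 of 5 pairs. None of the 4 lower guidance genes was called with the covariate. The integrin subunits *Itga6* and *Itga3* fell by 7.77% and 6.76%. YAP targets went both ways, with *Amotl2* and *Ccn2* higher and *Wwc1*, *Ankrd1* and *Axl* lower of 22 tested. These were 9.09% and 13.6%, against 1.16% and 1.07% of all genes tested. None of these YAP targets was called without the block or with the opposite-strand covariate. Among E proteins, which are partners of Id proteins, and other bHLH factors, *Atoh8* and *Tcf4* were higher and *Tcf3* and *Myc* lower of 15. The calls were 13.3% each way, with *Tcf4* at 7.3% and *Tcf3* at 6.92%. DESeq2 called none of them, and it gave no adjusted p for *Atoh8*.

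The EV samples were set beside both groups of the pairs, gene by gene. For 10 of the 12 genes called higher with the smallest adjusted p, the EV mean was nearer to del9, with *Slc66a3* and *Foxo1* as the exceptions. For the 12 called lower it was nearer to del9 in 6 and nearer to gdf6Y in *Il33*, *Errfi1*, *Aif1l*, *Hmga2*, *Chlsn* and *Gpc1*. *Errfi1* averaged 7201 ± 268 (SD, n = 6) in EV samples, 7139 ± 295 (SD, n = 5) in gdf6Y samples and 7984 ± 345 (SD, n = 5) in del9 samples, and the ranges of EV and del9 overlapped. In the same order *Gpc1* averaged 3611 ± 97.1 (SD, n = 6), 3502 ± 76.3 (SD, n = 5) and 3937 ± 177 (SD, n = 5). Over all calls, the EV mean was nearer to del9 for 42 of the 139 higher and 56 of the 128 lower genes. It lay between the means of both groups for 142 of the 267, beyond that of gdf6Y for 84 and beyond that of del9 for 41. Among the 11 called BMP-responsive genes, EV was nearer to del9 in 9, all except *Gata3* and *Snai2*. It was nearer to gdf6Y in 4 of the 6 Smad2/3-responsive genes (*Ccn2*, *Ltbp2*, *Postn* and *Skil*), in all 5 called YAP targets and in *Jun*, *Myc*, *Jund* and *Ier2*. *Jund*, for example, averaged 2742 ± 76.5 (SD, n = 6) in EV samples, 3001 ± 173 (SD, n = 5) in gdf6Y samples and 3234 ± 168 (SD, n = 5) in del9 samples. *Postn* averaged 224 ± 41.3 (SD, n = 6), 244 ± 41.9 (SD, n = 5) and 191 ± 30.1 (SD, n = 5). These positions are a description: no test was made against EV.

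In several lists the median ratio of pair 1 had the opposite sign to that of each other pair. Among lists of at least 5 tested genes, these were giant scaffold genes, genes encoded in the mitochondria, guidance genes (0.055 in pair 1, -0.10 to -0.0030 in the others), YAP targets (0.0099, against -0.036 to -0.0038) and heat shock genes (-0.016, against 0.0042 to 0.026). Giant scaffold genes encode very large proteins, among them linkers of the cytoskeleton. All 26 tested were lower with gdf6Y in the fit with all pairs, with a median log2 fold change of -0.11. Of these, *Plec*, plectin, was the 1 that was called (3.85%, against 1.07% of all genes tested). Their median ratio was 0.36 in pair 1 and -0.32, -0.18, -0.17 and -0.30 in pairs 2 to 5. Without pair 1, 25 of the 26 were called lower and the median was -0.23, and with the opposite-strand covariate 10 were called higher and 0 lower. *Plec* had 13574, 13724, 12817, 11418 and 11897 normalized counts with gdf6Y and 12979, 15986, 14242, 13142 and 14906 with del9. The direction of these genes thus depended on the fit. Genes called lower had a median exonic length of 6130 bases, against 6281 for all genes tested, and without pair 1 of 9315 for the 550 then called. Of 7 mitochondrially encoded genes tested, *mt-Nd6*, *mt-Nd4* and *mt-Nd2*, subunits of respiratory complex I, were called higher (42.9%, against 1.16% of all genes tested). The median ratio of the 7 was -0.075 in pair 1 and 0.31, 0.33, 0.20 and 0.11 in pairs 2 to 5. *mt-Nd4* had 12091, 19411, 18152, 22193 and 21105 with gdf6Y and 11987, 14414, 13716, 18112 and 19121 with del9. Both samples of pair 1 were the lowest of their group. None of the 3 was called without the block or with the covariate.

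**Figure D5:**
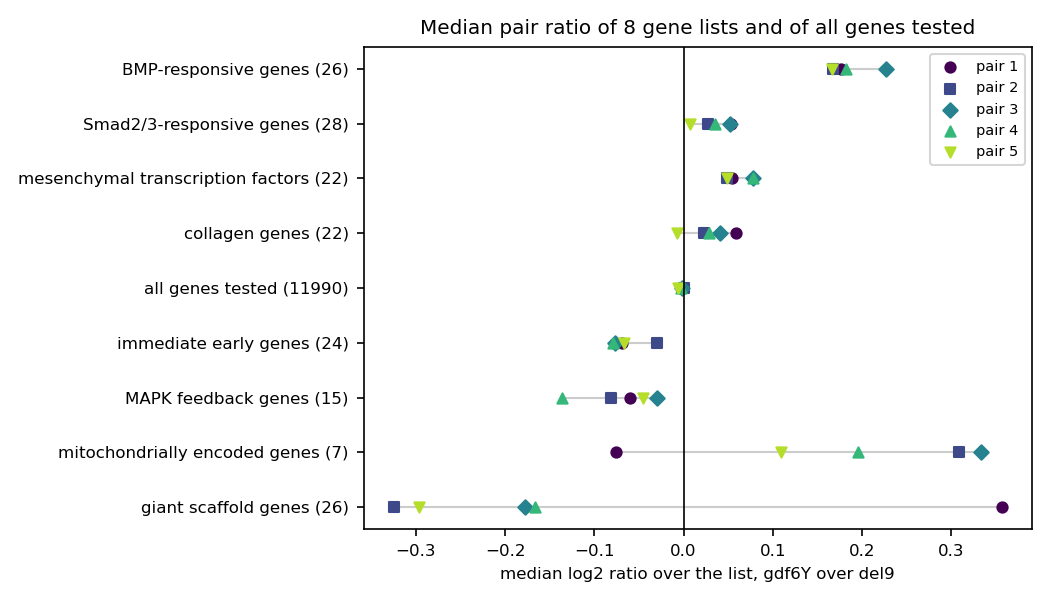
Median log2 ratio of gdf6Y over del9 (x axis) within each pair, over the tested genes of 8 lists and over all genes tested (y axis, number of genes in parentheses). Symbols stand for the pairs. The BMP-responsive genes lie between 0.17 and 0.23 in all pairs, while pair 1 lies opposite to the other pairs for the giant scaffold and the mitochondrially encoded genes.

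Some of the largest changes belonged to transcripts that overlap a far more abundant gene on the other strand. Of the 139 genes called higher, 5 overlap an opposite-strand gene at least 10 times as abundant (*Itga2*, *mt-Nd6*, *Gm15270*, *Rps18-ps4* and *Gm26586*). The 2 *Gm* genes lie outside the rule for naming genes. Of the 128 called lower, 0 overlap such a gene, against 580 of 11723 not called. Such overlap was thus no more frequent among the calls than among the other genes. *Rps18-ps4*, named as a pseudogene of a ribosomal protein, had 94.6, 110.3, 59.6, 107.5 and 139.5 normalized counts with gdf6Y and 77.4, 11.4, 27.1, 28.5 and 49.3 with del9. Its pair ratios ran from 0.29 in pair 1 to 3.27 in pair 2 (log2 fold change 1.40, SE 0.24, edgeR adjusted p = 0.00427), and with the summed opposite-strand level as a covariate its adjusted p was 0.746 (edgeR). *Itga2*, an integrin subunit of low level here, had 48.3, 18.7, 30.7, 37.8 and 24.9 with gdf6Y and 24.8, 11.4, 20.1, 26.6 and 15.5 with del9 (adjusted p = 0.025, edgeR). Its largest pair ratio was that of pair 1, at 0.96 in log2 units. The long noncoding *1810014B01Rik*, which is not among these 5, behaved like *Rps18-ps4*, with pair ratios from 0.12 to 1.82 and the smallest in pair 1. *Id1*, *Id2*, *Id3*, *Atoh8*, *Smad6*, *Smad7*, *Smad9*, *Nrn1*, *Il1rl1*, *Il33* and *Wnt7b* were called with the covariate too, with log2 fold changes of 0.66, 0.61, 0.68, 1.72, 0.56, 0.39, 0.85, 0.37, -0.52, -0.40 and -0.42 in this order.

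Several groups of genes had few calls or none. Of 29 tested chaperones and sensors of the unfolded protein response, which would register misfolded protein in the endoplasmic reticulum, 0 were called in either direction by edgeR, limma-voom or DESeq2, with 3 higher and 3 lower at an unadjusted p below 0.05. Their log2 fold changes ran from -0.09 to 0.13. Of 78 cytosolic ribosomal proteins 0 were called by the 3 tools (1 higher and 2 lower at an unadjusted p below 0.05). Of 52 interferon-stimulated genes, *Parp14* was lower in edgeR (1.92%, against 1.07% of all genes tested). None was higher in the 3 tools (7 at an unadjusted p below 0.05). Of 11 markers of Sertoli cells, *Wt1*, *Dmrt1* and *Fshr* had 0 counts in all 10 samples. *Amh* had 3 to 13 counts, *Nr5a1* 0 to 4 and *Cldn11* 0 to 1, so 6 of the 11 were below the filter. *Gata4*, *Kitl*, *Dhh*, *Inha* and *Sox9* passed it. *Sox9*, a factor of male sex determination in mammals, had 39.4, 44.1, 40.0, 48.8 and 37.9 normalized counts with gdf6Y and 37.3, 39.1, 37.1, 38.0 and 52.2 with del9 (log2 fold change 0.05, SE 0.14, edgeR adjusted p = 0.897). *Gata4*, a gonadal zinc-finger factor, had 714, 761, 718, 717 and 709 with gdf6Y and 769, 794, 749.6, 805 and 821 with del9. It was lower in 5 of 5 pairs, by 7.93%, and did not pass (adjusted p = 0.0863, edgeR; 0.0424 with all 16 samples in the fit and 0.0496 with length offsets). In a separate list of 22 Sertoli cell markers, 6 were tested and none was called by the 3 tools (1 lower at an unadjusted p below 0.05). Markers of germ and endothelial cells were below the filter in all cases, and summed markers of other cell types overlapped between the groups: 9180 to 9742 with gdf6Y and 8858 to 9573 with del9 for smooth muscle, and 34.6 to 53.1 and 35.3 to 62.8 for immune cells.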

How the data were processed

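Poly(A) RNA of TM4 cells was sequenced in strand-specific libraries with unique molecular identifiers, made from 300 ng of total RNA. According to the submitters’ processing notes and the methods, reads were demultiplexed with bcl2fastq 2.20.0.422, aligned with STAR 2.7.10a to GRCm39, freed of PCR duplicates with UMI-tools and counted per gene and strand with featureCounts 2.0.3, using uniquely mapped reads only. The authors deposited raw counts per gene, without normalization, for 16 samples. Depth was between 21486850 and 26444903 counts per sample, and 99.88% to 99.9% of the counts of the 10 compared samples fell on the genes tested. The number of samples and the depth limit the precision: standard errors (log2 scale) were 0.026 for *Id1* and 0.14 for *Sox9*.

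GENCODE gave symbols and GRCm39 coordinates for 56017 of 56748 identifiers, and promoters from RefSeq tables of GRCm38.p6. The counts were modelled in edgeR 4.0.16 under R 4.3.3 (TMM, estimateDisp, glmQLFit with legacy=TRUE, glmQLFTest) on genes with at least 10 counts in each of the 10 samples, with replicate numbers as blocks. The number comes from the sample labels. Deviations from the group means correlated at 0.144 to 0.178 in all 5 same-numbered pairs and at -0.196 to 0.186 (mean -0.04) in the other 20 pairings, and 8 of the 10 samples correlated best with their own number. By the threshold of 0.1 for every pair, the numbers were taken to pair the samples. Other pairings passed it too: gdf6Y 2 with del9 5 (0.186), gdf6Y 1 with del9 4 (0.127) and gdf6Y 4 with del9 1 (0.102). The threshold alone therefore does not single out the same-numbered pairs. Deviations within a group cancel out, so the mean of the other pairings is not an independent contrast. No 2 replicates of a group agreed within sampling noise. Standard errors come from each log2 fold change and its F statistic. Alternatives were made with DESeq2 1.42.0, limma 3.58.1, other filters, scalings, samples and offsets for length and GC content, without the block and without each pair.

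Named genes were the 12 per direction with the smallest adjusted p among those with all 5 pairs in that direction, a set of BMP and gonad genes, up to 4 called members per list and direction, and the 3 largest changes per direction. Genes named beside these are said to be so or complete a list. The comparison, the lists and the rule were chosen with earlier results of these data known. Steps were tested on simulated counts. Replicate 6 of gdf6Y and of del9, left out by the authors, was not analysed here, nor were HeLa and killifish data. Values of some list members are not reported here.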

Additional observations from a re-analysis of the deposited data

Results flagged for a closer look

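In 243 groups of 5 or 6 samples, namely the levels of the 79 named genes that were tested, the summed opposite-strand level and the total counts, 8 held a sample whose gap to its nearest neighbour exceeded Dixon’s critical value as a share of the range. Chance alone flags about 1 in 20 such groups. With gdf6Y, *Gata4* was highest in replicate 2, at 761 normalized counts, with the next sample at 718, and *Itga3* was lowest in replicate 5, at 5062, with the next at 5239. With del9, *Sema5a* was highest in replicate 2, at 3022, with the next at 2778, and *Sox9* was highest in replicate 5, at 52.2, with the next at 39.1. The total of 24608410 counts in del9 replicate 3 was the lowest of its group, next to 25650188. With EV, *Smad9* was lowest in replicate 5, at 138, next to 156, *mt-Nd2* was lowest in replicate 1, at 20174, next to 23362, and *Gata4* was highest in replicate 4, at 841, next to 832. No library was flagged for more than 1 quantity.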

How the results depend on the processing

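The calls of the *Id* genes, *Atoh8*, *Smad6*, *Smad7*, *Smad9*, *Nrn1*, *Lxn*, *Unc5b*, *Slc66a3*, *Foxo1*, *Klf10*, *Foxc1*, *Il1rl1*, *Il33*, *Wnt7b*, *Eps8*, *Errfi1* and *Aif1l* held in all 18 alternatives that gave an adjusted p. They were 20 of the 76 named genes called. The samples are paired by number, and without the replicate block 25 genes were higher and 19 lower, and 8 BMP-responsive genes were called. Together with a filter of at least 1 count in any sample, the design of the study, 155 were higher and 106 lower. That filter with the block gave 289 and 372, of which 58 and 4 lay outside the genes tested. DESeq2 gave 62 and 45, with 6 BMP-responsive genes and no adjusted p for 3022 genes. All 16 samples gave 167 and 197, and length offsets 152 and 259. The covariate of opposite-strand level, chosen after seeing the data, gave 78 and 11. With 1 pair left out, 48 to 424 genes were higher, 34 to 550 lower and 9 to 13 BMP-responsive genes higher; pair 1 gave the highest counts, and pair 3 the lowest. The share of higher genes among the calls was 52.1%, and 37.0% with length offsets, 39.3% with GC offsets, 43.7% with the filter of 1 count and 87.6% with the covariate. The causes were not tested. In the other alternatives the numbers of genes called higher and lower stayed within 1.5 times. Counts in smaller lists moved more. Smad2/3-responsive genes called higher went from 6 to 0 without the block and to 1 without pair 3. Mitochondrially encoded genes called higher went from 3 to 7 without pair 1. The direction reversed for *Plec* with the covariate (log2 fold change 0.0137) and for *Sox9* without pair 4 (-0.0314; 0.1849 without pair 5), and neither was called there. Depth limits low genes most: *Sox9* had 35 to 54 counts per sample.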
